A study of Danio rerio with 18 samples.

Results

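The comparison described here is that of zebrafish embryos injected with a locked nucleic acid oligonucleotide (LNA) against mir-34 with embryos injected with a mock LNA, both collected 1 hour post fertilization (hpf). It holds 6 of the 18 arrays of the series, 3 for anti-mir-34 embryos and 3 for mock embryos, chosen by their sample labels, and all 15502 probe sets that are not Affymetrix controls. All embryos were wild type, were injected when they had 1 or 2 cells (per the labels' protocols) and were used whole. The other 12 arrays are the same injections collected at 7 and 24 hpf, in 4 groups of 3. Replicates are labelled biological. The sources used here do not give the number of embryos in a sample, the clutches they came from, the LNA dose or the sequence of the mock LNA. P-values therefore measure the spread between these samples.

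A microRNA guides a silencing complex to messenger RNAs that carry a match to its seed, and the bound messages are translated less or lose their poly(A) tail and decay. An LNA oligonucleotide pairs tightly with the microRNA and keeps it from those messages. Early zebrafish embryos live on messenger RNA that the mother laid down in the egg, and their own genome is mostly silent until the blastula stage. The vertebrate miR-34 family is known as part of the p53 response, with cell cycle genes and Notch pathway genes among its reported targets. Mature mir-34 itself is not measured by the probe sets used, so no array value checks that the LNA bound it.

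The labelled stage was borne out by egg transcripts on all 6 arrays. Each value is a level on the log2 scale of the deposited signal, on which a difference of 1 is a 2-fold change. Values of 3 arrays are listed in the order of replicates 1 to 3. The germ plasm organizer gene buc stood at 10.20, 10.32 and 10.31 on the anti-mir-34 arrays, against 10.46, 9.98 and 10.36 on the mock arrays. The oocyte-specific linker histone h1m averaged 10.95 ± 0.18 in anti-mir-34 embryos and 11.05 ± 0.38 in mock embryos (SD, n = 3 each). Other egg genes lay lower: bmp15, dazl, zar1 and ddx4 averaged 9.04, 7.86, 7.11 and 6.92 in anti-mir-34 embryos, against 8.91, 7.43, 6.98 and 6.17 in mock embryos. Genes that embryos switch on later were near the bottom of the scale: krt4, apoeb, sox19a and tbxta averaged 2.79, 2.71, 1.64 and 1.21 in anti-mir-34 embryos, against 1.92, 2.01, 1.22 and 0.12 in mock embryos. The 34 genes of a list of egg coat and oocyte maturation genes had a median of 6.93 ± 0.12 on the anti-mir-34 arrays and 6.82 ± 0.12 on the mock arrays (exact permutation p = 0.3, two-sided, where 3 against 3 arrays cannot give less than 0.1). For 56 genes of the gastrula the medians were 2.19 ± 0.16 on the anti-mir-34 arrays and 1.92 ± 0.25 on the mock arrays (p = 0.2 in the same exact test), and 33 of these genes lay below 2. In whole embryos, less RNA per cell and fewer cells that hold it cannot be told apart.

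One mock array stood apart before any comparison. Mock replicate 2 had 36 missing values, against 2 to 19 on the other 5 arrays, its highest level was 11.03 (11.28 to 12.24 on the others), and its bacterial hybridization controls averaged 7.11 (4.79 to 6.16 on the others). Counts of calls are therefore given with and without it. By mean correlation, anti-mir-34 replicate 2 lay nearer to the mock arrays (0.913) than to its own group (0.897). Mock replicate 3 likewise lay nearer to the anti-mir-34 arrays (0.913) than to its own group (0.908). For the GAPDH control, the 3′ probe set minus the 5′ one, a measure of RNA integrity, was -0.04 ± 0.23 in anti-mir-34 embryos and -0.17 ± 0.31 in mock embryos (exact permutation p = 0.8, n = 3 each). The same difference for the Dap control was 3.82 on anti-mir-34 replicate 2 and 3.66 on mock replicate 2, against 2.20 to 2.73 on the remaining arrays.

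Of 15502 probe sets, 191 (1.23%) were higher or lower in anti-mir-34 embryos than in mock embryos at 1 hpf with a limma adjusted p below 0.05, in a fit that took the spread from all 18 arrays. There were 66 higher (0.426%) and 125 lower (0.806%) in anti-mir-34 embryos. The differences were large: 186 of the 191 exceeded 2-fold, and 47 exceeded 4-fold, 15 of them higher and 32 lower. Their median was 1.51 among the higher and -1.66 among the lower, against 0.04 over all probe sets. In each of the 191 the 3 anti-mir-34 arrays lay on one side of the 3 mock arrays, as they did in 12.7% of all probe sets. These calls are 148 genes by any probe set. By the probe set that stands for a gene, the one with the highest mean over 18 arrays, 139 of 8793 genes were called (1.58%), 45 higher (0.512%) and 94 lower (1.07%).

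How firm these calls are depends on which arrays measure the spread. With only the 6 arrays of 1 hpf in the limma fit, 0 probe sets passed: the smallest adjusted p was 0.131, and 1145 probe sets (7.39%) had an unadjusted p below 0.05 (1524 with all 18 arrays, 9.83%). The 191 were all among those 1145, with adjusted p between 0.131 and 0.603. Both fits take the same group means at 1 hpf, so the direction of a difference could not change between them. The called probe sets varied more among the anti-mir-34 arrays of 1 hpf (median SD 0.61) than among the mock arrays of 1 hpf (0.31) or the arrays of 7 hpf (0.26 and 0.33 for anti-mir-34 and mock) and 24 hpf (0.19 and 0.22), which also enter the larger fit. Every statement that a gene rose or fell below is a call of the larger fit, and none of them passes in the fit of 6 arrays. Without mock replicate 2 the larger fit called 151 probe sets, 67 higher and 84 lower, 118 of them among the 191, and 113 genes (1.29%), 45 higher and 68 lower. Of those 151 probe sets, 150 exceeded 2-fold and 57 exceeded 4-fold, 22 of them higher and 35 lower. Without anti-mir-34 replicate 2 it called 468, of which 103 were higher and 365 lower and 180 were among the 191. The fewest calls, 89, came without mock replicate 1, and 75 of them were among the 191.

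**Figure D1:**
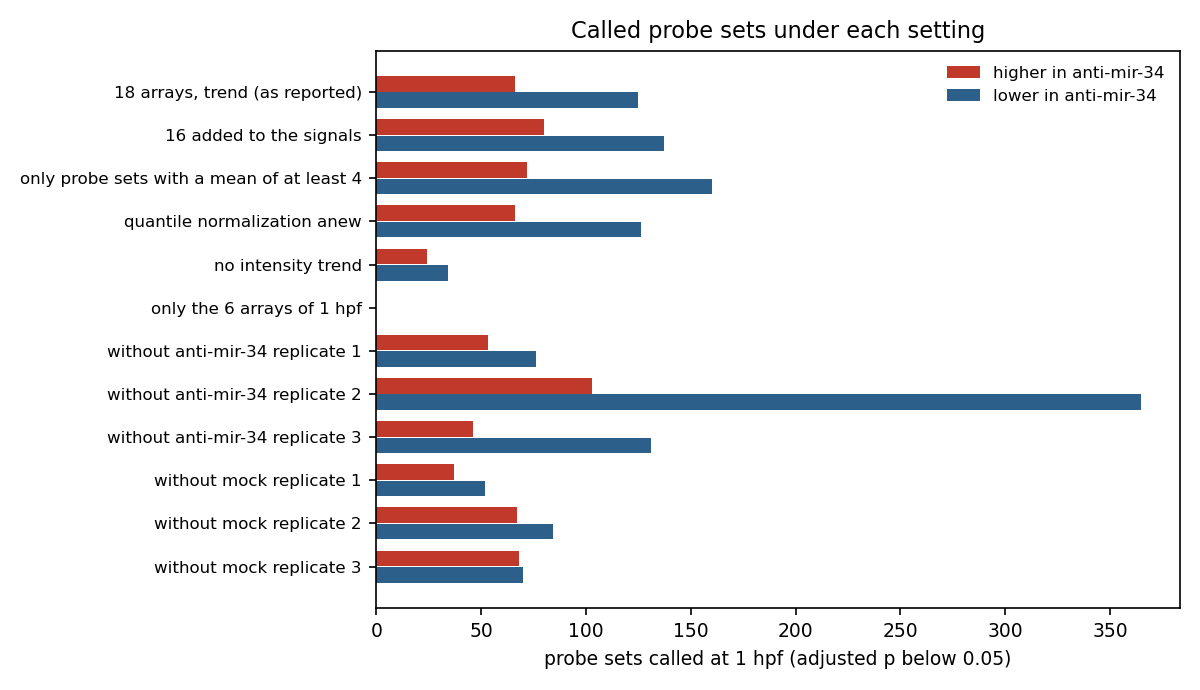
Number of probe sets called at 1 hpf (x axis, limma adjusted p below 0.05) higher (red) and lower (blue) in anti-mir-34 than in mock embryos, for the fit as reported, for 5 other settings and with each array left out. The bars are empty for the fit of only the 6 arrays of 1 hpf and longest without anti-mir-34 replicate 2, at 103 and 365.

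The lowered and the raised probe sets spread differently over the anti-mir-34 arrays. For the 125 lower probe sets, the median difference from the mock mean was -2.40 on anti-mir-34 replicate 1, -1.0 on replicate 2 and -1.55 on replicate 3. Replicate 1 was the lowest of its group in 106 of the 125, and replicate 2 the highest in 96. Their median SD was 0.78 over the anti-mir-34 arrays and 0.28 over the mock arrays, and it was larger over the anti-mir-34 arrays in 109 of 125. The 66 raised probe sets were split less, with median differences of 1.36, 1.35 and 1.70 on replicates 1 to 3. Their median SDs were 0.36 over the anti-mir-34 arrays and 0.40 over the mock arrays. Replicate 3 was the highest of its group in 38 of the 66, replicate 1 in 20 and replicate 2 in 8. Among all 3404 probe sets with a level of 6 or more, the anti-mir-34 SD was the larger in 59%. The part of 1 array in the lowered or raised genes was not tested beyond leaving each array out.

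By signal level, the calls sat in the middle of the scale. Of probe sets with a mean of 6 to 8 over the 6 arrays, 90 of 2714 (3.32%) were called, 30 higher and 60 lower. Between 4 and 6 it was 61 of 3848 (1.59%), 18 higher and 43 lower, and between 8 and 10 it was 9 of 586 (1.54%), 3 higher and 6 lower. None of the 104 probe sets at 10 or above was called, so the brightest probe sets are not among the 191. At the dim end, 27 of 5172 probe sets below 2 (0.522%) and 4 of 3078 between 2 and 4 (0.13%) were called. Those dim calls depend on small signals: when 16 was added to each signal before taking logarithms, 1 of the 27 and 1 of the 4 remained, against 53 of 61, 90 of 90 and 9 of 9 in the 3 brighter classes. Without mock replicate 2 the calls by level were 29 below 2, 3 between 2 and 4, 33 between 4 and 6, 73 between 6 and 8 and 13 between 8 and 10, again with 0 above.

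**Figure D2:**
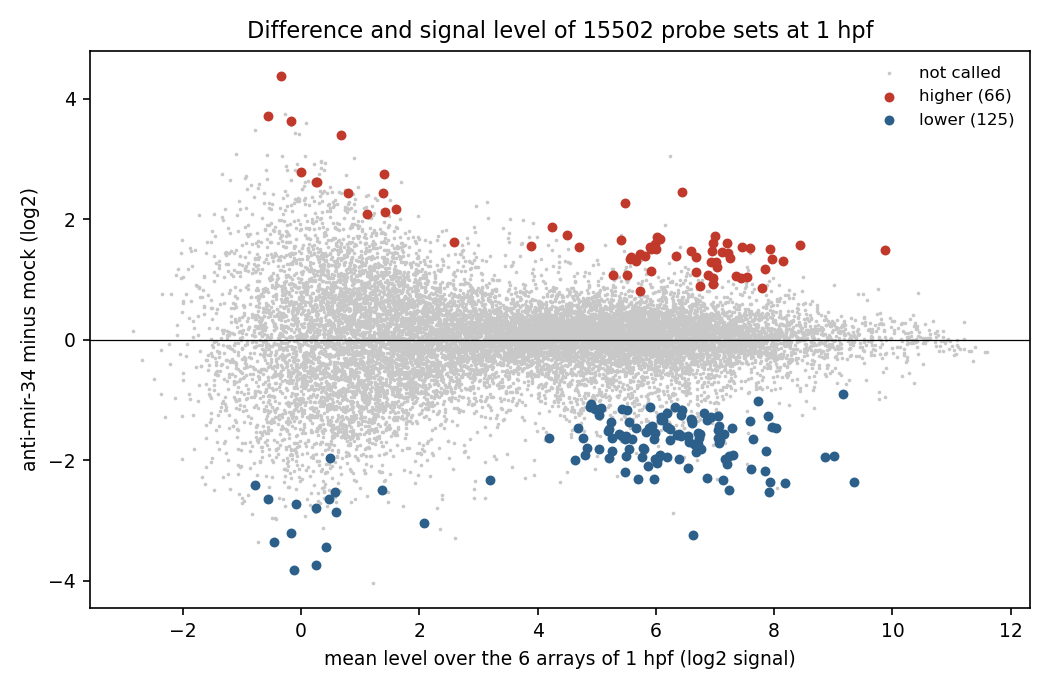
Difference between anti-mir-34 and mock embryos (y axis, log2) against the mean level over the 6 arrays of 1 hpf (x axis, log2 signal), 1 point per probe set, with the 66 higher calls in red, the 125 lower calls in blue and the rest in grey. Most calls lie between levels of 4 and 8, and 27 lie below 2.

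Some genes for translation factors were among the clearest raised genes. Of 74 genes listed by their symbols as translation factors, 4 were called and all 4 were higher. That is 5.41%, against 1.58% of all genes in either direction. The median difference was 0.12 over the list and 0.04 over all genes. The median level of the list was 6.78, against 4.82 over all genes, and probe sets were called most often at levels of 6 to 8 (3.32%). The lists of nucleolar (6.23), RNA-binding (6.72), cell cycle (6.68) and ubiquitin pathway genes (6.0) also had median levels above that of all genes. Shares called in the lists were not compared with genes of like level. The cap-binding gene eif4e3, of the family that docks messages to the ribosome, stood at 7.52, 7.58 and 7.94 on the anti-mir-34 arrays, against 4.69, 5.14 and 5.82 on the mock arrays. The groups do not overlap, and the difference of 2.46 ± 0.33 (SE) is 5.50-fold, with a limma adjusted p of 0.00096. Its dimmer probe set differed by 1.66 and did not pass (adjusted p = 0.21). The gene eif4a3 is in the list by its symbol, while its helicase is a core part of the exon junction complex. It had levels of 8.48, 8.37 and 9.22 in anti-mir-34 embryos, against 7.24, 7.10 and 7.21 in mock embryos. Here the mock arrays lay close together, and the gene rose by 1.51 ± 0.20 (adjusted p = 0.000914).

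The helicase gene eif4a1a, which unwinds messages at the start of translation, had levels of 7.80, 7.27 and 7.93 in anti-mir-34 embryos, against 6.19, 6.59 and 6.34 in mock embryos (1.30 ± 0.20, adjusted p = 0.00236). For eif5a2, a factor of elongation, the levels were 7.16, 7.24 and 7.85 in anti-mir-34 embryos, against 5.86, 6.42 and 6.75 in mock embryos, a rise of 1.08 ± 0.23 (adjusted p = 0.0188). Their second probe sets differed by 0.51 (adjusted p = 0.72) and 1.45 (0.108). The call of eif5a2 was lost without anti-mir-34 replicate 3 (0.0858) or mock replicate 1 (0.113), whereas the other 3 genes passed with any 1 array left out. Over the whole list, 7 genes were higher and 7 lower at an unadjusted p below 0.05, and the lower ones did not pass. One of these was eif5b, which joins the ribosomal subunits (6.09 ± 0.90 in anti-mir-34 and 7.40 ± 0.48 in mock embryos, adjusted p = 0.06). Another, eif2ak3, averaged 5.68 ± 0.71 in anti-mir-34 and 7.38 ± 0.57 in mock embryos, without overlap (adjusted p = 0.0944, and 0.0241 with 16 added to the signals). Outside the list, the translation gene denr was called lower (-1.11, adjusted p = 0.0198) and passed in 2 of the 6 fits with 1 array left out. Both eif2ak3 and denr were named after their values were seen. The abundant elongation factor gene eef1a1l1 averaged 11.09 ± 0.21 in anti-mir-34 and 11.09 ± 0.32 in mock embryos. None of 75 cytosolic ribosomal protein genes was called, in a fit where 2 had an unadjusted p below 0.05 (smallest limma adjusted p 0.0599), and their differences lay between -0.57 and 0.83.

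Of 97 nucleolar and ribosome biogenesis genes, 4 were lower and 0 higher (4.12% called), against 1.07% of all genes called lower and 0.512% called higher. The list median was -0.02, and at an unadjusted p below 0.05 its genes were split, 7 higher and 8 lower. The nucleolar helicase gene ddx21, which acts in the making and processing of ribosomal RNA, had the smallest p of all genes: its levels were 6.26, 5.99 and 6.28 in anti-mir-34 embryos, against 8.41, 8.07 and 7.96 in mock embryos. All 6 arrays held tightly to their groups, and the gene fell by 1.98 on the log2 scale (SE 0.21, 3.93-fold, limma adjusted p = 0.000151). The ribosomal RNA processing gene rrp1 stood at 4.64, 5.82 and 4.72 in anti-mir-34 embryos, against 7.53, 7.18 and 6.34 in mock embryos (-1.96 ± 0.32, adjusted p = 0.00422). The other 2 were wdr75, of the small subunit processome (-1.55 ± 0.31, adjusted p = 0.015), and exosc2, of the RNA exosome (-1.24 ± 0.25, adjusted p = 0.0138). Both were lost with 1 of 2 arrays left out, wdr75 without anti-mir-34 replicate 1 (0.073) or mock replicate 1 (0.0721) and exosc2 without mock replicate 2 (0.0683) or 3 (0.0566).

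In the lists of RNA helicases and of RNA-binding regulators, calls went in both directions. Among 37 genes listed for DEAD and DEAH box helicases, ddx3xa was higher and ddx21 lower (5.41% called, against 1.58% of all genes). The helicase genes eif4a1a and eif4a3, both called higher, are not in that list, so its counts are those of the list only. The gene ddx3xa, whose helicase aids translation of structured messages, stood at 7.79, 7.77 and 7.71 in anti-mir-34 embryos, against 5.82, 6.07 and 6.59 in mock embryos (1.60 ± 0.32, limma adjusted p = 0.0138, and 0.076 without mock replicate 1). Its other probe sets differed by 0.32 and 0.99 and did not pass (adjusted p = 0.967 and 0.445). Of 64 genes listed by their symbols as RNA-binding regulators of maternal messages, 2 were higher and 2 lower (6.25%, against the same 1.58%). The raised ones were tardbpb, the gene of TDP-43, a protein that binds RNA, and khdrbs1b, a gene of the Sam68 family. For tardbpb the levels were 7.70, 8.20 and 7.70 in anti-mir-34 embryos, against 5.51, 6.71 and 6.20 in mock embryos, with every anti-mir-34 array above every mock array, and the rise was 1.73 ± 0.26 (adjusted p = 0.00236). The rise of khdrbs1b was 1.05 ± 0.20 (adjusted p = 0.0106, and 0.0506 without mock replicate 1).

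On the lower side, fxr1, a relative of the fragile X protein gene, stood at 2.88, 5.99 and 5.60 in anti-mir-34 embryos, against 7.00, 6.97 and 7.42 in mock embryos. Anti-mir-34 replicate 1 was far below the other arrays, and the difference was -2.31 ± 0.49 (adjusted p = 0.0188), lost without mock replicate 1 (0.0558) or 3 (0.0731). The Puf-domain gene pum3, in the list by its symbol only, differed by -1.28 ± 0.31 (adjusted p = 0.0467), a call that 4 of the 6 left-out arrays ended. Of 103 spliceosome and splicing factor genes, hnrnpa1b was higher (1.34 ± 0.24, adjusted p = 0.00633) and srsf3b lower (-1.21 ± 0.25, adjusted p = 0.0151, up to 0.0779 with 1 array left out). That is 1.94%, near the 1.58% of all genes. Of 27 genes of the microRNA machinery and of deadenylation, 1 was called (3.7%, against 1.58% of all genes). This gene, cnot11, for a subunit of the deadenylase complex CCR4-NOT, stood at 4.43, 5.03 and 5.11 in anti-mir-34 embryos, against 5.65, 6.30 and 6.08 in mock embryos (-1.16 ± 0.25, adjusted p = 0.0188, up to 0.0973 with 1 array left out).

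**Figure D3:**
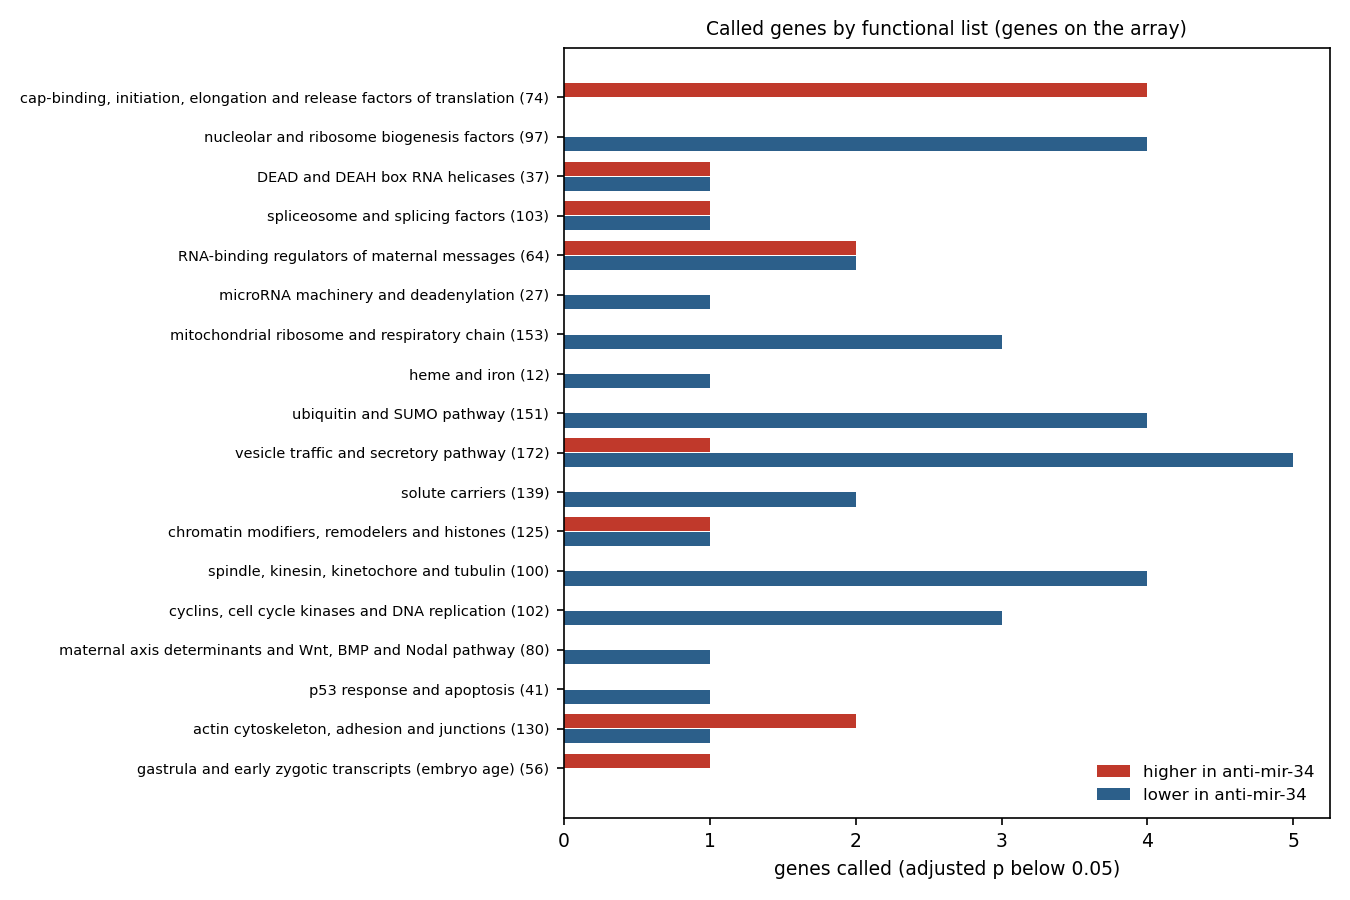
Number of called genes (x axis) higher (red) and lower (blue) in anti-mir-34 than in mock embryos at 1 hpf, for the 18 functional lists with at least 1 call, with the number of the list's genes on the array in brackets. Translation factors have 4 higher and 0 lower, vesicle traffic genes 1 higher and 5 lower.

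The other 6 genes among the 10 largest rises of level 6 or more were igbp1, rcor1, hmg20b, oaz1b, api5 and pfn2b, of mixed function. The gene igbp1, which codes for a regulatory partner of protein phosphatase 2A, stood at 7.68, 8.22 and 8.13 in anti-mir-34 embryos, against 6.21, 6.17 and 6.85 in mock embryos (1.60 ± 0.25, limma adjusted p = 0.00341). A dimmer probe set of igbp1 differed by 0.55 and did not pass (adjusted p = 0.821). Both rcor1 and hmg20b code for subunits of the CoREST corepressor complex. Levels of hmg20b were 7.03, 7.40 and 7.58 in anti-mir-34 embryos, against 5.64, 6.01 and 5.95 in mock embryos, a rise of 1.47 ± 0.21 (adjusted p = 0.00131) in groups more than 1 unit apart. For rcor1 they were 7.68, 7.98 and 8.98 in anti-mir-34 embryos, against 6.68, 6.60 and 6.77 in mock embryos (1.53 ± 0.31, adjusted p = 0.0138), lost without anti-mir-34 replicate 3 (0.0644) or mock replicate 1 (0.051). A second probe set of rcor1 differed by 1.03 and did not pass (adjusted p = 0.108). The antizyme gene oaz1b, whose protein limits polyamine synthesis, was at 8.09, 8.17 and 8.80 in anti-mir-34 embryos, against 6.09, 7.07 and 7.33 in mock embryos (1.53 ± 0.27, adjusted p = 0.00633). Its second probe set differed by 1.00 and did not pass (adjusted p = 0.119).

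The apoptosis inhibitor gene api5 averaged 9.23 ± 0.61 in anti-mir-34 embryos and 7.66 ± 0.53 in mock embryos, a rise of 1.57 ± 0.26 (adjusted p = 0.00499). A dimmer probe set of api5 differed by -0.12 (adjusted p = 0.999). The profilin gene pfn2b, of the actin cytoskeleton, was the brightest of the raised genes, at 10.33, 10.67 and 10.86 in anti-mir-34 embryos, against 8.56, 9.61 and 9.21 in mock embryos. Its rise of 1.49 ± 0.33 (adjusted p = 0.0244) rested on several arrays: it was lost without mock replicate 1 (0.143), mock replicate 3 (0.0599) or anti-mir-34 replicate 3 (0.0858). The p120 catenin gene ctnnd1, whose protein steadies cadherins at the membrane, had levels of 6.64, 6.68 and 7.02 in anti-mir-34 embryos, against 5.20, 5.17 and 5.19 in mock embryos, and rose by 1.60 ± 0.24 (adjusted p = 0.00236). With the lowered rhocb, a small GTPase gene of the actin system (-1.50 ± 0.31, adjusted p = 0.0172, 0.077 without mock replicate 1), pfn2b and ctnnd1 were the 3 calls among 130 genes of actin, adhesion and junctions (2.31%, against 1.58% of all genes). Of the other rhocb probe sets, 1 differed by -0.55 (adjusted p = 0.688) and 1 by -1.54 (0.0259).

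The 10 largest falls among genes of level 6 or more were in genes of mixed function, and each of these 10 had its lowest level on anti-mir-34 replicate 1. The largest fall, 9.47-fold, was that of cab39l, which codes for a scaffold of the LKB1 kinase: it stood at 2.50, 6.91 and 5.62 in anti-mir-34 embryos, against 8.10, 8.30 and 8.36 in mock embryos (-3.24 ± 0.63, limma adjusted p = 0.0113). The anti-mir-34 arrays spanned more than 4 units, the mock arrays less than 1. Its other probe sets differed by -1.68 and -1.15 and did not pass (adjusted p = 0.541 and 0.36). The gene alas1, for the first enzyme of heme synthesis, had levels of 5.95, 7.91 and 6.08 in anti-mir-34 embryos, against 9.55, 8.85 and 9.13 in mock embryos (-2.53 ± 0.36, adjusted p = 0.0014). It was the 1 call among 12 genes of heme and iron (8.33%, against 1.58% of all genes).

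Similar in size were nucb1, for a calcium-binding protein of the Golgi (-2.37 ± 0.42, adjusted p = 0.00596), and tspan36, for a tetraspanin (-2.37 ± 0.39, adjusted p = 0.00419). A second probe set of nucb1 differed by 0.10 (adjusted p = 0.999) and 2 others by -1.18 and -1.19 (0.159 and 0.216). The gene pclaf, whose protein binds the replication clamp PCNA, was the brightest of them, at 6.59, 9.57 and 8.36 in anti-mir-34 embryos, against 10.70, 10.44 and 10.43 in mock embryos (-2.35 ± 0.43, adjusted p = 0.00722). The elongation control gene nelfa stood at 4.61, 7.20 and 6.12 in anti-mir-34 embryos, against 8.53, 8.32 and 8.07 in mock embryos (-2.33 ± 0.44, adjusted p = 0.00852). The receptor kinase gene erbb2 stood at 4.45, 6.96 and 5.77 in anti-mir-34 embryos, against 8.05, 8.01 and 7.98 in mock embryos, levels that nearly coincide (-2.29 ± 0.42, adjusted p = 0.00777). The small membrane protein gene blcap fell by 2.14 on the log2 scale (SE 0.38, adjusted p = 0.00596).

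Of the 80 genes for maternal axis determinants and the Wnt, BMP and Nodal pathways, 1 was called (1.25%, against 1.58% of all genes). It was ctnnb2, the second beta-catenin gene of zebrafish, whose maternal product is needed for the dorsal axis. It stood at 4.85, 8.09 and 7.33 in anti-mir-34 embryos, against 8.59, 8.76 and 9.44 in mock embryos, without overlap. The difference of -2.17 ± 0.48 (limma adjusted p = 0.0246) did not pass without mock replicate 1 (0.054), 2 (0.0547) or 3 (0.106). The paralog ctnnb1 averaged 8.19 ± 0.17 in anti-mir-34 and 8.10 ± 0.31 in mock embryos. Of 139 solute carrier genes 2 were lower (1.44%, near the share of all genes), slc39a6, a zinc transporter known from cell movement in the zebrafish gastrula (-2.12 ± 0.47, adjusted p = 0.0249), and slc10a7 (-1.47 ± 0.34, adjusted p = 0.0304). Leaving out 4 arrays in turn ended the first call and leaving out 5 in turn the second, with adjusted p up to 0.106 and 0.174.

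**Figure D4:**
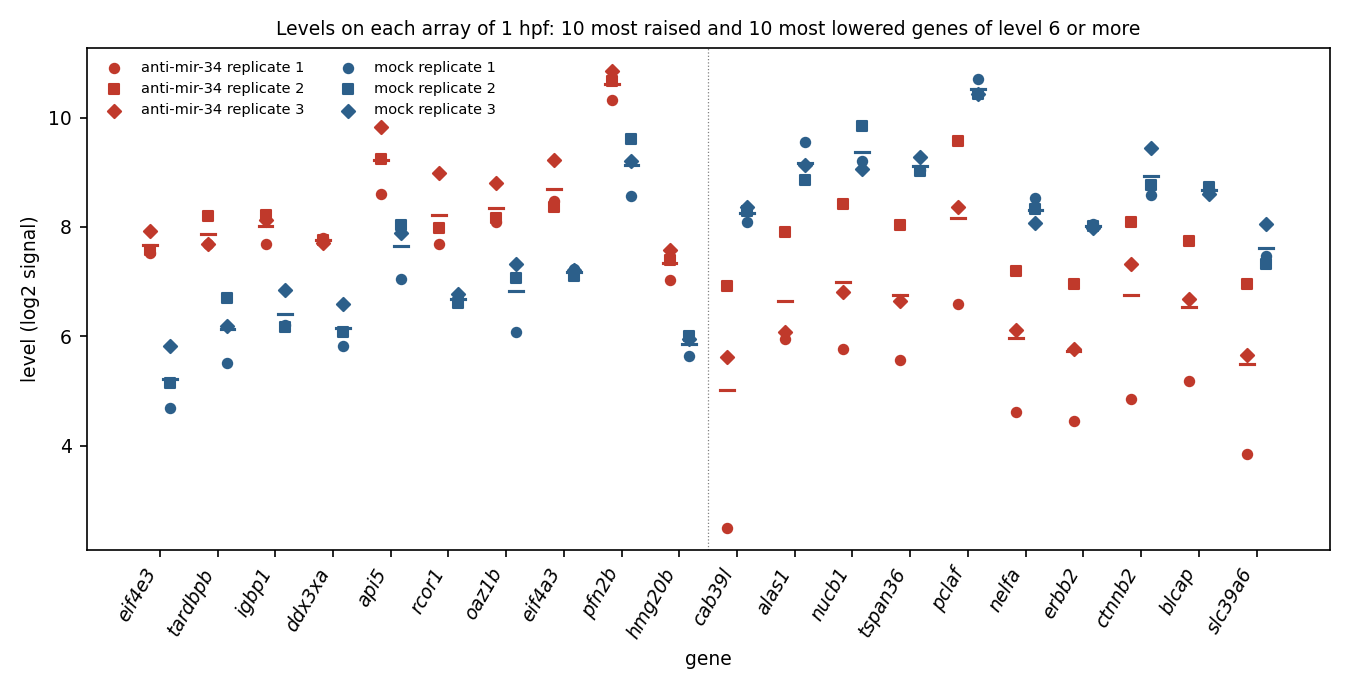
Level on each array of 1 hpf (y axis, log2 signal) of the 10 genes with the largest rise (left of the dotted line) and the 10 with the largest fall among called genes with a mean of 6 or more, in anti-mir-34 embryos (red) and mock embryos (blue), with marker shape for the replicate and a bar for the group mean. In the lowered genes the red points are widely spread, with replicate 1 at the bottom and replicate 2 nearest to the blue points.

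Of 100 genes for the spindle, kinesins, kinetochores and tubulins, 4 were lower and 0 higher (4.0%), beside 1.58% of all genes called, of which 94 of 139 were lower. The list median was 0.00, and at an unadjusted p below 0.05 3 of its genes were higher and 13 lower. The kinetochore motor gene cenpe stood at 5.31, 6.03 and 6.00 in anti-mir-34 embryos, against 7.34, 7.66 and 7.53 in mock embryos (-1.73 ± 0.30, limma adjusted p = 0.00511). The kinesin gene kif18a (-1.65 ± 0.36), the gamma-tubulin gene tubg1 (-1.60 ± 0.34) and the spindle checkpoint gene mad1l1 (-1.46 ± 0.30) had adjusted p of 0.0224, 0.0198 and 0.016, and each lost its call without anti-mir-34 replicate 1 (0.131, 0.0956 and 0.0863 in that order), without mock replicate 1 (0.104, 0.0779 and 0.0834) and without mock replicate 3 (0.064, 0.0768 and 0.054). The call of kif18a was also lost without mock replicate 2 (0.0504). Of 102 genes for cyclins, cell cycle kinases and DNA replication, 3 were lower and 0 higher (2.94%), and 4 were higher and 9 lower at an unadjusted p below 0.05. The kinase gene cdk1, the motor of entry into mitosis, stood at 5.36, 5.67 and 5.66 in anti-mir-34 embryos, against 7.31, 6.80 and 7.32 in mock embryos, without overlap and with an SD of 0.18 over the anti-mir-34 arrays. It fell by 1.58 on the log2 scale (SE 0.25, adjusted p = 0.00302).

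The cyclin-dependent kinase 2 partner gene cdk2ap2 stood at 5.60, 6.63 and 6.41 in anti-mir-34 embryos, against 8.01, 7.67 and 8.07 in mock embryos (-1.70 ± 0.25, adjusted p = 0.00158). The checkpoint kinase gene chek1 differed by -1.66 ± 0.35 (adjusted p = 0.0191), a call that 4 of the 6 left-out arrays ended (up to 0.11). In the list of p53 response and apoptosis genes, 1 of 41 was called (2.44%, against 1.58% of all genes): bcl2l10, an apoptosis regulator of the Bcl-2 family, differed by -1.26 ± 0.27 (adjusted p = 0.0212), also ended by 4 left-out arrays (up to 0.123).

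Of 151 genes of the ubiquitin and SUMO pathway, 4 were lower and 0 higher (2.65%, against 1.58% of all genes, 1.07% lower and 0.512% higher), and 5 were higher and 18 lower at an unadjusted p below 0.05. The modifier gene sumo2b stood at 5.08, 5.75 and 5.39 in anti-mir-34 embryos, against 7.27, 6.55 and 7.40 in mock embryos (-1.67 ± 0.24, limma adjusted p = 0.00166). The other 3 code for deubiquitinases: usp8 (-1.55 ± 0.27, adjusted p = 0.00567), usp5 (-1.28 ± 0.26, 0.0162) and usp10 (-1.02 ± 0.23, 0.0246). The call of usp5 was ended by 4 left-out arrays and that of usp10 by 5 (up to 0.0863 and 0.124). A second probe set of usp10 differed by -0.54 and did not pass (adjusted p = 0.575). The list does not hold all genes of the pathway: the ubiquitin ligase gene stub1, called lower, was outside it. None of 50 proteasome genes was called, with 4 at an unadjusted p below 0.05 (smallest limma adjusted p 0.379).

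Of 172 genes of vesicle traffic and the secretory pathway, 1 was higher and 5 lower (3.49%), beside the same 1.58% of all genes, and 5 were higher and 17 lower at an unadjusted p below 0.05. The raised one was snx9b, of endocytosis, at 7.48, 7.49 and 7.77 in anti-mir-34 embryos, against 6.24, 6.13 and 6.50 in mock embryos (1.29 ± 0.22, adjusted p = 0.00567). Of the transport gene rab1ba, whose protein guides vesicles to the Golgi, the levels were 4.21, 6.22 and 5.78 in anti-mir-34 embryos, against 7.30, 7.32 and 7.52 in mock embryos (-1.98 ± 0.34, adjusted p = 0.00511). The COPII coat gene sar1b differed by -1.95 ± 0.37 (adjusted p = 0.0102, 0.0522 without mock replicate 1) and the retromer gene vps29 by -1.64 ± 0.35 (0.0192, up to 0.122 with 1 array left out). The remaining 2, named after their values were seen, were the retromer gene vps35 (-1.57 ± 0.34, adjusted p = 0.0192) and the adaptor gene ap1m2 (-1.36 ± 0.33, 0.0487). They passed in 2 and in 1 of the 6 fits with 1 array left out. The list does not hold all genes of traffic, so its share is that of the list only. Outside it were gdi2, gorasp2, vapa and chmp2bb, called lower, and sh3glb1a, called higher. The number of lowered vesicle genes varied with the arrays used, from 1 without mock replicate 1 to 9 without anti-mir-34 replicate 2. The same held for spindle genes (1 to 7) and for the ubiquitin pathway (2 to 8), while raised translation factors stayed between 3 and 5 and lowered nucleolar genes between 3 and 5.

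The lists of mitochondrial and of chromatin genes had shares called near that of all genes (1.58%). Among the 153 genes listed for the mitochondrial ribosome and respiratory chain, 3 were lower and 0 higher (1.96%). The largest was malsu1, for a factor of mitochondrial ribosome assembly, at 0.01, 1.09 and 0.55 in anti-mir-34 embryos, against 3.72, 3.67 and 3.40 in mock embryos (-3.05 ± 0.35, limma adjusted p = 0.000251). It is dim, and with 16 added to the signals it differed by -0.68 and did not pass (adjusted p = 0.0616). The succinate dehydrogenase gene sdhb differed by -1.73 ± 0.32 (adjusted p = 0.00672, 0.051 without mock replicate 1) and mrpl2 by -1.25 ± 0.27 (0.0198, up to 0.105 with 1 array left out). Outside that list, uqcc2, for an assembly factor of the respiratory chain, was called higher (6.2 in anti-mir-34, 4.9 in mock, adjusted p = 0.0467). It was named after its values were seen and passed in 2 of the 6 fits with 1 array left out. Of 125 chromatin genes, the acetyltransferase gene kat7b was higher (1.03 ± 0.21, adjusted p = 0.0156) and the demethylase gene kdm5c lower (-1.54 ± 0.34, 0.0243), 1.60% in all. Left-out arrays ended both, with adjusted p up to 0.0706 and 0.143. The chromatin list does not hold all such genes. Outside it were rcor1, hmg20b, atf7ip and dpf2l, called higher, and mbd3a and tada1, called lower, so its share is that of the list only.

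Among called genes with a mean level below 6, the 3 largest rises and the 3 largest falls did not pass once 16 was added to the signals. Higher were pck2 (2.38 ± 0.15 in anti-mir-34 and -1.02 ± 0.69 in mock embryos), zgc:100868 (1.39 ± 0.50 in anti-mir-34, -1.40 ± 0.80 in mock) and mybpc2b (2.6 ± 0.64 in anti-mir-34, 0.17 ± 0.87 in mock). Lower were ebf2 (-1.61 ± 0.70 in anti-mir-34, 2.13 ± 0.87 in mock), chka (-2.12 ± 0.75 in anti-mir-34, 1.22 ± 1.23 in mock) and tsc22d3 (-1.78 ± 0.55 in anti-mir-34, 1.43 ± 0.66 in mock). Their limma adjusted p lay between 0.00363 and 0.0487. With that addition the 6 differences were between -0.35 and 0.37 (smallest adjusted p 0.553). The keratin gene krt97, the 1 call among 56 gastrula genes (1.79%, against 1.58% of all genes), was of the same kind, at 2.48 ± 0.55 in anti-mir-34 and 0.36 ± 0.49 in mock embryos (adjusted p = 0.00597, and 0.919 with 16 added).

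Genes reported as miR-34 targets had 0 calls among 42 on the array in limma. At an unadjusted p below 0.05, 4 were lower and 0 higher in anti-mir-34 embryos (9.52%), where 929 of all 8793 genes (10.6%) had such a p, 369 higher and 560 lower. The list median was -0.02, and 11 of the 42 lay below 2. The smallest adjusted p, 0.0606, was that of snai1a, for a transcriptional repressor known from cell movement, at 5.03, 5.92 and 6.29 in anti-mir-34 embryos, against 6.78, 6.62 and 6.88 in mock embryos. Its difference of -1.01 passed with 16 added to the signals (adjusted p = 0.0476) and over probe sets with a mean of at least 4 (0.0322). It also passed with the replicate number as a block (0.0363) and without anti-mir-34 replicate 2 (0.0448) or 3 (0.0199). The dim gene sox2 passed without anti-mir-34 replicate 2 (-1.67, adjusted p = 0.039) and with that block (-1.40, 0.0129). Without mock replicate 2 the dim Notch ligand gene jag1a passed (-2.06, 0.0378). These 3 genes were named after their values were seen. The cyclin gene ccnd1 stood at 2.57, 2.59 and 2.23 in anti-mir-34 embryos, against 2.56, -0.03 and 3.04 in mock embryos, with overlap (0.61, 95% interval -0.48 to 1.69, adjusted p = 0.877). A dimmer probe set of ccnd1 differed by -0.02 (adjusted p = 0.999). The Myc gene myca stood at 3.47, 3.38 and 3.15 in anti-mir-34 embryos, against 3.12, 2.66 and 2.73 in mock embryos (0.50, -0.48 to 1.47, adjusted p = 0.906). The p53 inhibitor gene mdm4 stood at 4.91, 5.36 and 5.09 in anti-mir-34 embryos, against 6.23, 5.77 and 6.22 in mock embryos. All its anti-mir-34 arrays were below its mock arrays, but the difference of -0.96 (-1.54 to -0.37) did not pass (adjusted p = 0.112). The intervals of ccnd1 and myca include a doubling as well as no change.

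Several groups held no call at 1 hpf in limma, where 1.58% of all genes were called and 10.6% had an unadjusted p below 0.05. At that share called, lists of this size would hold few calls or none, so their lack says little. These were the genes of glycolysis and the pentose phosphate pathway (37 genes, 0 at an unadjusted p below 0.05), chaperones (79 genes, 12), nuclear pore and transport (38, 6), aminoacyl-tRNA synthetases (20, 2), egg coat and oocyte maturation (34, 3), germ plasm and piRNA (21, 1), zygotic genome activation (10, 1), stress and innate immunity (79, 8) and lipid and yolk (78, 6). Among the chaperones the smallest limma adjusted p was 0.0517, just above the threshold. The glycolytic gene gapdh averaged 10.52 in anti-mir-34 and 10.50 in mock embryos. For egg genes the larger fit also takes the spread from later ages: h1m had an SE of 1.01, beside SDs of 0.18 and 0.38 at 1 hpf. The lack of a call there does not show equal levels. The egg gene fbxo43, named after its values were seen, averaged 5.88 in anti-mir-34 and 8.19 in mock embryos, without overlap. Its difference of -2.30 did not pass (limma adjusted p = 0.248), but passed with 16 added to the signals (0.00257). Among the genome activation factors, nanog averaged 10.15 ± 0.39 in anti-mir-34 and 9.78 ± 0.53 in mock embryos, and pou5f3 averaged 9.95 ± 0.29 in anti-mir-34 and 9.70 ± 0.15 in mock embryos. Markers of cells that could ride along with eggs or that arise later also had 0 calls: 2 of 28 ovarian follicle and gonad genes, 1 of 22 blood and vessel genes, 2 of 38 muscle genes and 1 of 23 neuron and glia genes had an unadjusted p below 0.05. The median of the follicle list was 2.37 ± 0.08 on the anti-mir-34 arrays and 2.48 ± 0.22 on the mock arrays (exact permutation p = 0.5, n = 3 each).

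The differences of 1 hpf were not found again in the later embryos, which are separate samples but share the fit. Of the 191 probe sets, 0 were called in the same direction at 7 or 24 hpf, ages at which limma called 2 probe sets each (0.0129%). At so small a share, the lack of a shared call says little about the 191 probe sets. The median size of their differences was 1.60 at 1 hpf, 0.31 at 7 hpf and 0.11 at 24 hpf, against 0.36 and 0.20 at the 2 later ages for all probe sets with a level of 4 or more. At 7 hpf 22 of the 191 (11.5%) had an unadjusted p below 0.05, against 12.4% of all probe sets, and at 24 hpf 1 (0.524%), against 4.43%. The sign of 1 hpf recurred in 87 at 7 hpf and in 101 at 24 hpf. Testing the change of the effect itself, limma found 42 probe sets (0.271%) whose anti-mir-34 minus mock difference was not the same at 7 as at 1 hpf, and 35 of these were among the 191. The 191 were chosen for their difference at 1 hpf, which is part of the quantity tested. That overlap, and the drop in median size from 1.60, are therefore in part fixed by the choice. For 24 against 1 hpf limma found 0 (smallest adjusted p 0.0548, with 1148 at an unadjusted p below 0.05). The later arrays also gave spread to the fit that made the 191 calls, which favours probe sets that vary little at those ages. For the 191 the median SDs (anti-mir-34 and mock) were 0.26 and 0.33 at 7 hpf and 0.19 and 0.22 at 24 hpf. Probe sets of level 4 or more had 0.31 and 0.37 at 7 hpf and 0.26 and 0.32 at 24 hpf. The small later differences of the 191 are thus also in part fixed by the choice.

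The translation gene eif4e3 differed by 2.46 at 1 hpf, by -0.48 at 7 hpf and by 0.35 at 24 hpf. For ddx21 the differences were -1.98, -0.24 and -0.20 at the 3 ages, and for cdk1 -1.58, 0.32 and -0.21. The receptor gene erbb2 kept the largest later difference among the genes with the strongest fall, -2.29 at 1 hpf, -1.47 at 7 hpf and -0.01 at 24 hpf, and was not called at 7 hpf.

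**Figure D5:**
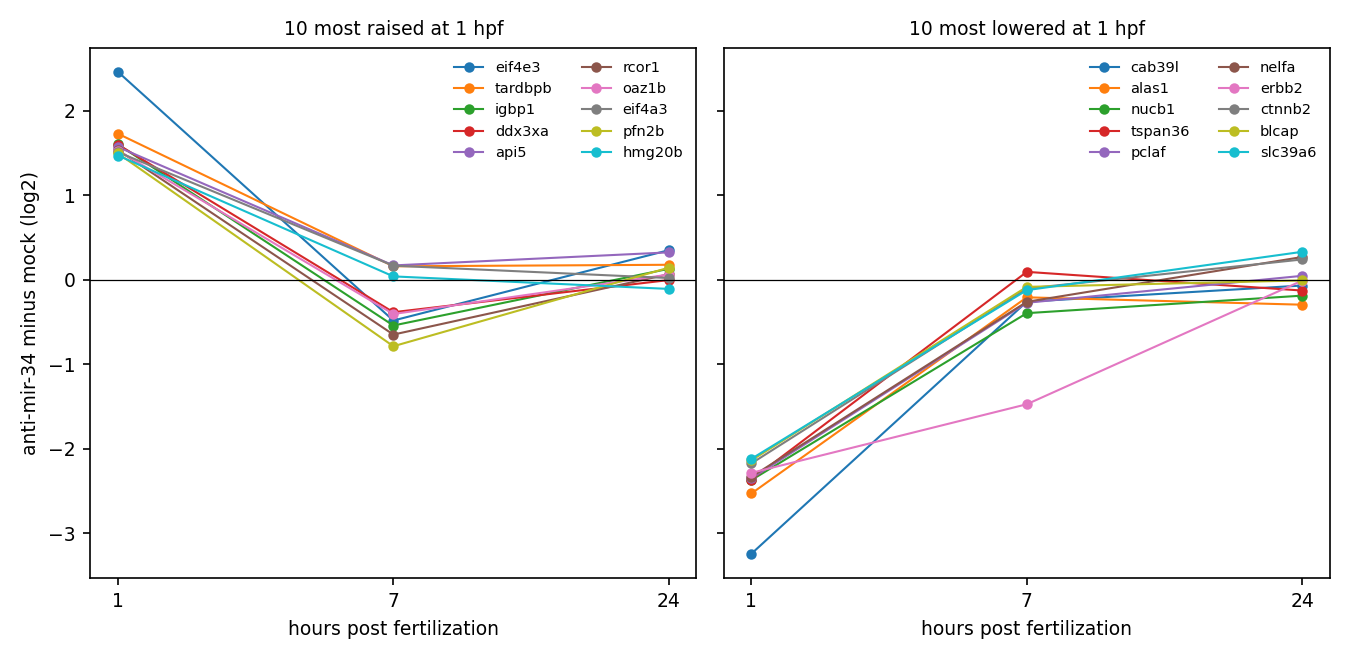
Difference between anti-mir-34 and mock embryos (y axis, log2) at 1, 7 and 24 hpf (x axis, evenly spaced) for the 10 genes with the largest rise (left) and the 10 with the largest fall (right) among called genes of level 6 or more. The lines meet near 0 at 24 hpf, and erbb2 lies at -1.47 at 7 hpf.

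Over the functional lists, leaving out mock replicate 2 changed some counts of called genes and not others, while 1.29% of all genes were called. Raised translation factors were then 5 (6.76%), lowered nucleolar genes 3, lowered spindle genes 4, lowered cell cycle genes 3 and lowered ubiquitin pathway genes 3. Vesicle traffic genes were 2 higher and 3 lower, RNA-binding regulators 2 higher and 1 lower, splicing genes 1 higher and 3 lower, and solute carriers 1 lower. Helicases, actin and adhesion genes, chromatin genes, mitochondrial genes, the p53 list and the heme list had the same counts as with all arrays. The lists of the microRNA machinery and of the maternal axis then had 0 calls, with cnot11 and ctnnb2 no longer passing. The lists of cytosolic ribosomal proteins and of lipid and yolk genes then had 1 call each, both higher, and the gastrula list 1 higher and 2 lower.

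Over the 63 called genes named by the rule given in the methods, 32 passed with any 1 of the 6 arrays left out, 13 of them higher and 19 lower. The other 31 lost the call at least once. Passing with any array left out did not mean passing in every fit. With all arrays but without the intensity trend of the limma fit, 25 of the 63 were called and 38 were not. Among the 32, cab39l (limma adjusted p = 0.0791), pclaf (0.0641) and erbb2 (0.0627) did not pass then. Others of the 32, such as eif4e3 (0.0124), ddx21 (0.00355) and cdk1 (0.0321), still passed. The array that decided most was mock replicate 1: without it 26 of the 63 did not pass, with adjusted p between 0.0506 and 0.21. Without mock replicate 3 it was 21 (0.0501 to 0.165), without anti-mir-34 replicate 1 it was 19 (0.0595 to 0.228), without anti-mir-34 replicate 3 it was 12 (0.054 to 0.103) and without mock replicate 2 it was 9 (0.0504 to 0.18). Leaving out anti-mir-34 replicate 2, the array nearest to the mock group in 125 of the 191 called probe sets, ended 1 call, that of mybpc2b (0.0788).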

How the data were processed

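Whole-embryo RNA was measured on 18 Affymetrix arrays, in 6 groups of 3 taken from the sample labels. Deposited values were log2 signals, read as such from the values themselves. The submitters' processing notes name GCOS, without a version. How probes were summarised and arrays normalized is not stated in those sources. The same exact values recur on different arrays, so the arrays appear to be scaled to a shared distribution, although their highest levels differ (11.03 to 12.24). Each difference is then set against all others on the arrays. The 131 missing values were left missing. The table holds no detection calls, and precision is limited by 3 arrays per group.

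A limma 3.58.1 model (R 4.3.3) with 1 mean per group was fitted to the 18 arrays (12 residual degrees of freedom), with an intensity trend in eBayes (8.06 prior degrees of freedom on average). Two-sided p-values were adjusted by Benjamini-Hochberg over 15502 probe sets, with a threshold of 0.05. Adjusted p-values in the text are limma's. Single values were compared by exact permutation tests (scipy 1.17.1). On simulated data with this design, 78 of 100 probe sets shifted by 2 and 16 of 100 shifted by 1 were called, with 8 unshifted ones. The simulation gave each probe set the same SD in all groups. In the data the called probe sets varied more on the anti-mir-34 arrays of 1 hpf (median SD 0.61) than in the other groups. The 8 therefore do not measure the rate of false calls in these data.

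Of the probe sets, 10795 had 1 gene symbol in the platform annotation, 135 several and 4572 none. NCBI's RefSeq genes matched 10711 of them through the Entrez number and updated 1 symbol. The brightest probe set over 18 arrays stood for each of the 1539 genes (of 8793) that had several.

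Named genes were, past the threshold, the 10 highest and 10 lowest differences with a mean of at least 6, the 3 highest and 3 lowest below 6, the 5 smallest p, and up to 4 called genes of each of 34 lists by smallest p (with no call, the 2 brightest), with ccnd1, myca, mdm4 and markers of stage. Other names were chosen after their values were seen. The members and lists were chosen with earlier results of these data known. Alternatives were 16 added to the signals, no trend, a filter on dim probe sets, quantile normalization anew, only the 6 arrays of 1 hpf, a replicate block and leaving out each array.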

Additional observations from a re-analysis of the deposited data

Results flagged for a closer look

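For 16 of the genes named above, the test of the change of the effect passed between 7 and 1 hpf: the anti-mir-34 minus mock difference at 7 hpf, minus that at 1 hpf, had a limma adjusted p below 0.05. These genes were named for their difference at 1 hpf, which is part of the quantity tested. Among the genes higher at 1 hpf, the change was -2.94 for eif4e3, -2.28 for pfn2b, -2.18 for rcor1, -2.14 for igbp1, -1.93 for oaz1b, -1.57 for snx9b, -1.43 for hmg20b and -1.34 for eif4a3. Among the genes lower at 1 hpf, it was 3.76 for malsu1, 2.51 for sar1b, 2.41 for cenpe, 2.19 for rrp1, 1.91 for cdk1, 1.86 for cdk2ap2, 1.83 for sumo2b and 1.73 for ddx21. The smallest adjusted p of the 16 was that of malsu1 (0.00421) and the largest that of sar1b (0.047).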

How the results depend on the processing

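The 191 calls (66 higher, 125 lower) became 58 (24 and 34) without the intensity trend, 0 (0 and 0) with only the 6 arrays of 1 hpf, and 391 (129 and 262) with the replicate number as a block. The replicate block kept 188 of the 191. Same-numbered arrays of both groups deviated together with r of 0.03, 0.08 and 0.14, all positive. For arrays of different number r lay between -0.15 and 0.06. No label ties same-numbered arrays, so the numbers were not taken to pair samples. Whether such arrays share a batch was not tested. With 1 array left out the counts ranged from 89 to 468, those higher from 37 to 103 and those lower from 52 to 365. The 42 probe sets whose effect changed between 1 and 7 hpf became 81 with 16 added, 5 without the trend, 79 over probe sets with a mean of at least 4, 225 with the replicate block, and 3 to 211 with 1 array left out. The 0 for 24 against 1 hpf became 1 without the trend, 3 with the dim filter, 1 with quantile normalization anew, 17 with the block, and 0 to 126 with 1 array left out. The 0 called again at 7 or 24 hpf became 1 with the block. No difference of a named called gene changed sign under any of the 12 alternatives. Most of these could not have changed a sign, because the groups of each called probe set do not overlap or the group means stay the same. With 16 added 154 of the 191 remained, and with quantile normalization anew 189. Apart from fewer samples in the fits of fewer arrays, the causes of these shifts were not tested. The limits are 3 arrays per group, no detection calls, and values that appear to be scaled to a shared distribution.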

Other observations

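Of the 139 called genes, 92 were in none of the lists used. The genes below were chosen after their values were seen. Genes of transcription were called in both directions: higher in anti-mir-34 embryos were gtf2b, for the general factor TFIIB (7.65 in anti-mir-34 and 6.43 in mock embryos, limma adjusted p = 0.0063), the polymerase subunit genes polr2g (7.20 in anti-mir-34, 6.30 in mock, 0.0361) and polr3d (6.67 in anti-mir-34, 5.16 in mock, 0.0248), and atf7ip, for a cofactor of gene silencing (8.80 in anti-mir-34, 7.49 in mock, 0.00633). Of atf7ip 3 further probe sets differed by 0.07, -0.17 and 1.06 and did not pass. Lower were the Mediator gene med17 (4.38 in anti-mir-34, 5.45 in mock, 0.0353), drap1 (5.50 in anti-mir-34, 6.98 in mock, 0.0103) and the transcription factor gene sp1 (5.46 in anti-mir-34, 6.92 in mock, 0.0176).

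Besides ctnnb2, lowered genes for catenins or their partners were jupa, for plakoglobin (4.53 in anti-mir-34 and 6.46 in mock embryos, limma adjusted p = 0.0276), and ctnnbip1, for a protein that binds beta-catenin (6.23 in anti-mir-34, 7.86 in mock, 0.0113). The corepressor gene ctbp2a, not a catenin gene, was also lower (5.23 in anti-mir-34, 6.66 in mock, 0.0207). The highest anti-mir-34 array of each lay below its lowest mock array. Among other catenin genes, ctnnd1 was called higher (6.78 in anti-mir-34, 5.18 in mock, 0.00236) and ctnnb1 was not called (8.19 in anti-mir-34, 8.10 in mock). The germ line gene gcna stood at 6.18 in anti-mir-34 and 8.23 in mock embryos (adjusted p = 0.047), and naca, for a chaperone subunit at the ribosome, at 8.70 in anti-mir-34 and 9.61 in mock embryos (0.0202), the highest mock level among the lowered genes outside pclaf. The tumour suppressor gene pdcd4a, whose protein holds back eIF4A, was higher (6.13 in anti-mir-34, 5.32 in mock, 0.047), while 3 dimmer probe sets of it differed by -0.57, -0.96 and -0.04 and did not pass. The called probe sets with no gene symbol numbered 40, 15 higher and 25 lower, and 12 of them had a level of 6 or more, with differences from -2.49 to 1.39. Of the 13 named genes described here, gtf2b, atf7ip and drap1 passed in all 6 fits with 1 array left out, ctnnbip1 in 5 of them, polr3d and sp1 in 3, gcna, ctbp2a and naca in 2, and jupa, med17, polr2g and pdcd4a in 1. With 16 added to the signals, med17 (0.054) and pdcd4a (0.0817) did not pass.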
